A study of Mus musculus with 8 samples.

Results

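The cytosolic ribosomal protein genes were compared in bEnd3, an endothelial cell line from mouse brain, between corticosterone and culture medium. Members were taken by gene symbol from the deposited gene table: protein-coding genes named Rpl or Rps with a number, together with Rplp0, Rplp1, Rplp2 and Rpsa. The symbol pattern matched 89 genes, of which 83 are annotated as protein coding, and all 83 were among the 35852 genes of the table. They comprise 51 genes of the large ribosomal subunit and 32 of the small subunit. The other 6 matches (Rps4l, Rps12l1, Rpl32l, Rpl6l, Rps3a3 and Rps3a2) are not annotated as protein coding and were not used as members. The rule uses symbols and annotation and no measured value.

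There were 8 polyadenylated-RNA libraries, 4 from cells given 5 µM corticosterone, the main glucocorticoid of rodents, for 24 h, and 4 from cells in culture medium. All 8 come from the same line, grown in serum-containing medium, and carry no genetic alteration beyond those of the line. The labels name no vehicle, and the treatment protocol attached to the medium libraries also mentions corticosterone, so the groups follow the titles and the treatment field. The labels do not say that replicates are separate cultures, and p-values then measure only the spread between these libraries, which may be technical.

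Each ribosome holds 1 copy of most of these proteins, so cells make them in matched amounts. Their mRNAs are short, abundant and stable, and most begin with a run of pyrimidines, the terminal oligopyrimidine (TOP) motif, through which mTORC1 and the RNA-binding protein LARP1 control their translation. The genes have also given rise to many processed pseudogenes, copies of the spliced mRNA elsewhere in the genome, and reads from shared sequence have to be divided between gene and copy.

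Runs of pyrimidines were common around the annotated starts of the members. RefSeq start windows on GRCm38.p6 were found for 63 of the 83 members by symbol. A run of at least 8 consecutive C or T lay between 50 bases before and 50 bases after an annotated start in 52 of the 63 (82.5%), against 39.3% of all 27025 genes with a window. A run of at least 10 was found in 43 members (68.3%), against 20.6% of all genes. The motif CTCTTT lay on the gene's strand in 19 members (30.2%), against 4.68% of all genes, and on either strand in 20 (31.7%), against 8.88%. Also scanned were CTTTCC, on the gene's strand in 19 members (30.2%, all genes 5.43%), and CTTCCG, in 11 (17.5%, all genes 5.41%). On either strand CTTTCC lay in 21 members (33.3%, all genes 10.3%) and CTTCCG in 24 (38.1%, all genes 10.4%). These motifs overlap with the pyrimidine runs. A match here is a description of letters and is not a mapped transcription start. Runs were counted anywhere in the window, so they need not be the TOP motif at the start of the mRNA. The windows below are those of some of the 12 members with a window that were called higher in the comparison of all 8 libraries. They were taken from those with the smallest p or the largest change. Rps6 and Rpl10 are added, whose own counts were called in the fit without corticosterone replicates 1 and 2 and not in that of all 8. Capitals mark the longest run of C or T, and each is written 5′ to 3′ on the gene's strand. The capitals begin at positions from -37 (Rps24) to 41 (Rpl10) relative to the annotated start. Those of Rps6 (-1) and Rps26 (4) begin closest to it. Those of Rpl10 and Rpl39 reach the end of the window and may be cut short.
Rps24 (chr14:24490710-24490739, plus strand): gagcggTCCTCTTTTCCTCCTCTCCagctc
Rpl36a (chrX:134585672-134585701, plus strand): cggctctagCCTCTCTCTTTCCgagctgct
Rpl10a (chr17:28328572-28328601, plus strand): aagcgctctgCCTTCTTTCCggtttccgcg
Rpl37a (chr1:72711274-72711303, plus strand): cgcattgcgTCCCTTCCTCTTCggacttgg
Rpl37 (chr15:5116631-5116660, plus strand): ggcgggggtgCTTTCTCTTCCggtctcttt
Rpl39 (chrX:37085173-37085202, minus strand): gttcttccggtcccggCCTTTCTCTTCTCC
Rps26 (chr10:128626485-128626514, minus strand): aagccgccggaTCCTCTTTCgagtcttggc
Rps6 (chr4:86857349-86857378, minus strand): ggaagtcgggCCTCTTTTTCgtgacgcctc
Rpl10 (chrX:74270836-74270865, plus strand): cgtgagcaggcgtgggagcgTCTCTTTTCC

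Pyrimidine runs in these windows did not separate members that passed the test from those that did not. Of the 12 called members with a window, 10 had a run of at least 8, and of the 48 tested members that were not called, 40 did. The median of the longest run was 10.5 bases in both.

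Libraries held 19.7 to 46.2 M estimated counts (M, 1e+06). The 10 endothelial markers, Cdh5 and Pecam1 among them, were detected and summed to 8675 to 9011 CPM (counts per 1e+06 of the TMM-scaled library) with corticosterone and 7885 to 8391 in medium. Markers of other cell types were low: the 5 fibroblast markers summed to 5.75 to 6.69 CPM with corticosterone and 19.9 to 21.9 in medium, and the 6 pericyte markers to 0.74 to 1.24 against 1.24 to 2.06. The 3 oligodendrocyte markers summed to 0.63 to 1.10 CPM with corticosterone and 1.22 to 1.47 in medium, the 3 astrocyte markers to 0.58 to 0.75 against 0.19 to 0.61, the 5 microglia and leukocyte markers to 0.33 to 0.51 against 0.38 to 0.84, and the 3 neuron markers to 0.12 to 0.25 against 0 to 0.042. In the last 3 lists 1 marker each (Aqp4, P2ry12 and Syt1) had 0 counts in all libraries. The sums of the fibroblast and oligodendrocyte markers were lower and those of the endothelial and neuron markers higher in every corticosterone library. Of the 10 endothelial markers, 5 were called higher and 3 lower in the comparison of all 8 libraries (all genes, 19.5% and 20.6%). The part of all these markers in the results was not tested.

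Corticosterone replicates 1 and 2 stood apart in how they were quantified. The effective length is the number of positions on a transcript from which a read could come, and kallisto uses it to divide reads and to compute TPM. Among transcripts of at least 1000 nt, the effective length exceeded the transcript length by 1 nt in these 2 libraries. In the other 6 libraries it was a median of 340.4 to 360.3 nt shorter for transcripts of that size. Ribosomal protein mRNAs are short, with a median of 711.5 nt for the most counted transcript of the tested members, so for them the ratio of the 2 kinds of effective length ran from 1.11 to 3.97, with a median of 1.97. TPM of the members in corticosterone replicates 1 and 2 was a median of 0.753 times that in corticosterone replicates 3 and 4. Over all genes tested in the 8 libraries the median ratio was 1.12. Comparisons are therefore given for all 8 libraries and again for the 6 with ordinary effective lengths, which leave 2 corticosterone libraries.

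The share of each library that lay in the 83 members was 3.87%, 4.64%, 4.42% and 4.49% in corticosterone replicates 1 to 4. It was 4.23%, 4.32%, 4.53% and 4.45% in medium replicates 1 to 4. The groups overlapped, and corticosterone replicate 1 was the lowest and replicate 2 the highest of the 8. When the 1012 genes that share 31-base stretches with a member were added, the shares became 5.42%, 5.63%, 5.26% and 5.33% with corticosterone and 5.02%, 5.14%, 5.39% and 5.29% in medium. Replicate 1 then no longer stood lowest, and medium replicates 3 and 4 lay among the corticosterone libraries.

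**Figure D1:**
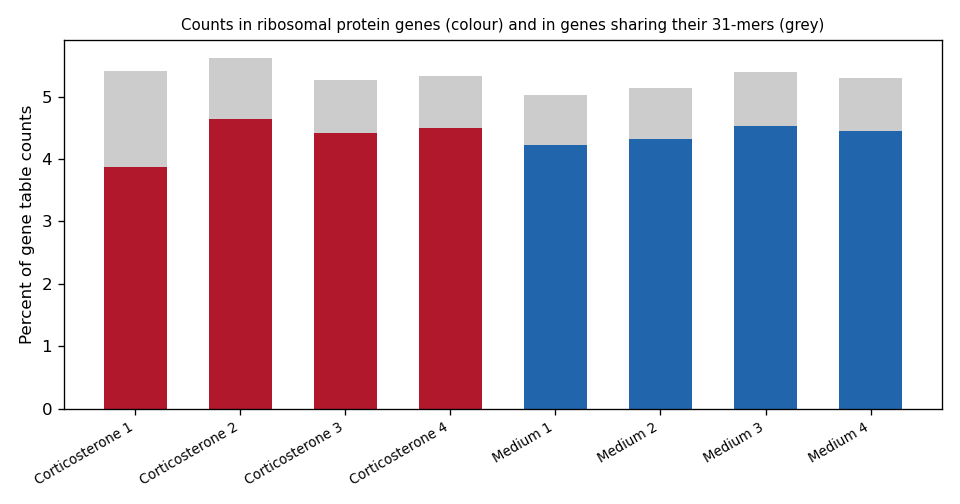
Percent of the gene table's counts in the ribosomal protein genes (coloured; red corticosterone, blue medium) and in the genes that share their 31-mers (grey, stacked), 1 bar per library. The coloured part of corticosterone replicate 1 is the shortest (3.87%) and its grey part the tallest, while the whole bars run from 5.02% to 5.63%.

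The division between gene and copy differed in corticosterone replicate 1. Of the counts in members and sharing genes together, the sharing genes took 28.5% there, 17.5% in replicate 2, and 15.8% to 16.1% in the other 6 libraries. The ratio of large-subunit to small-subunit counts was 1.46 in replicate 1 and 1.22 in replicate 2, against 1.25 to 1.27 in the others. Within the members, transcripts annotated as retained introns took 14.0% and 8.4% of the counts in these 2 libraries and 1.8% to 2.0% in the other 6. These values move together with the unusual effective lengths, and the part of the effective lengths in them was not tested.

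The level of the members, as TPM per transcript length in the 6 ordinary libraries, ran from 59.9 to 6093 with a median of 1854. Rplp1, a stalk protein that helps recruit elongation factors, stood first with 6093 ± 177 TPM (SD, n = 6), followed by Rps12 with 5830 ± 126 and Rps15 with 5135 ± 105. The ranges of Rplp1 (5851 to 6333) and Rps12 (5716 to 6022) overlapped, and Rps15 stayed below both with at most 5304. At the other end stood Rps13 with 75.0 ± 7.7 TPM, Rpl12 with 62.3 ± 4.7 and Rpl5 with 59.9 ± 2.5. Neighbours among these 3 overlapped in their ranges. Their low values leave out the counts assigned to copies of the same sequence, which are described next.

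The division between a member and its copy is given for 5 pairs, chosen after their values were seen. Rpl5, which with Rpl11 and the 5S rRNA forms the particle that binds Mdm2, has an identical coding sequence of 891 bases in the processed pseudogene Gm15500 on chromosome 7. Gm15500 took 95.9% to 97.4% of the counts of that pair in the 8 libraries. Gm10275 on chromosome 10, identical to Rpl12 over 495 coding bases, took 94.8% to 97.2%, and Rps13-ps1 on chromosome 8 took 89.8% to 95.4% of its pair with Rps13. In these 3 pairs the copy held most counts in all libraries, but corticosterone replicates 1 and 2 lay outside the range of the others. The copy's share in these 2 was 95.9% and 97.4% for Rpl5 (96.2% to 96.5% in the others). For Rpl12 it was 97.2% and 94.8% (95.1% to 95.7%), and for Rps13 93.7% and 89.8% (94.2% to 95.4%).

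For Rpl10 and Rpl35 the division differed far more between libraries. Rpl10, a late-joining protein of the large subunit, has 642 coding bases in common with Rpl10-ps3 on chromosome 9, which is annotated as protein coding. Rpl10-ps3 took 96.0%, 0.0%, 47.0% and 50.4% of the pair's counts in corticosterone replicates 1 to 4 and 52.6% to 57.0% in medium. Gm2000 on chromosome 1 took 96.8%, 11.2%, 78.8% and 78.7% of its pair with Rpl35 in the corticosterone replicates and 78.5% to 79.2% in medium. Replicates 1 and 2 thus lay at opposite ends for both genes, while replicates 3 and 4 lay close to medium.

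Few bases tell such copies apart. Bases 88 to 147 of the coding sequence of Rpl35 hold its single mismatch with Gm2000, and bases 382 to 441 of Rps13 hold both mismatches with Rps13-ps1, marked by capitals and counted from the start codon. The sequences are those of the GENCODE M21 transcripts on GRCm38.
Rpl35: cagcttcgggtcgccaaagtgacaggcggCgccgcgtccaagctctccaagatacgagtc
Gm2000: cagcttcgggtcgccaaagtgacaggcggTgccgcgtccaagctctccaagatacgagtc
Rps13: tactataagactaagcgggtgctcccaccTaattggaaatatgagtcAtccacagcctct
Rps13-ps1: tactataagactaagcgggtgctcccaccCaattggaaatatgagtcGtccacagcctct

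**Figure D2:**
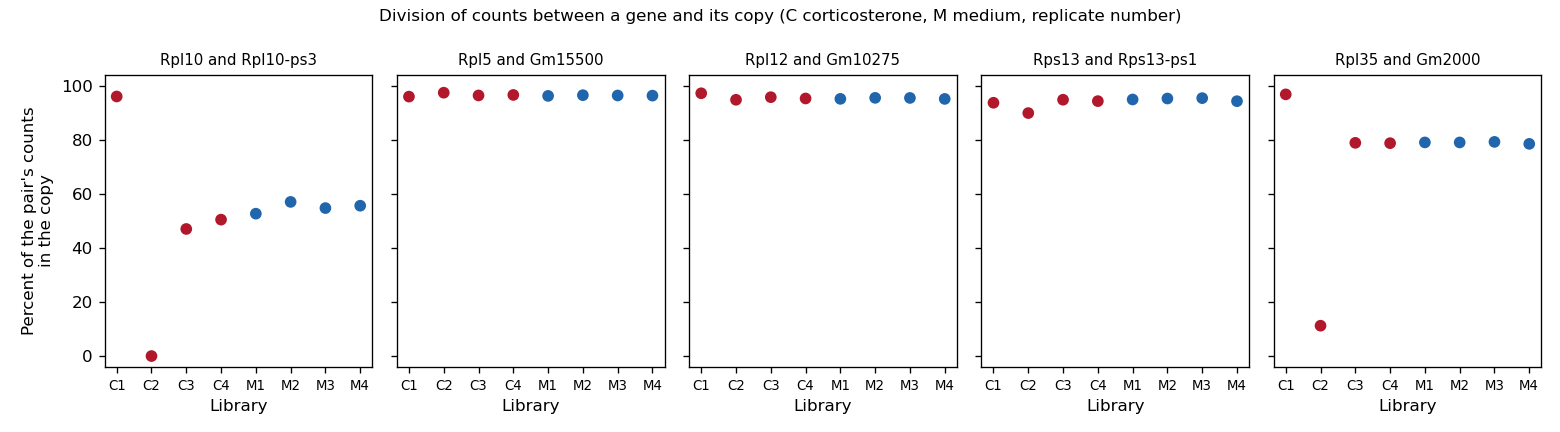
Percent of the counts of a gene and its copy that were assigned to the copy, for 5 pairs, 1 point per library (C corticosterone, red; M medium, blue). For Rpl10 and Rpl35 the points of corticosterone replicates 1 and 2 lie far above and below the other 6, and for Rpl5, Rpl12 and Rps13 all points lie between 89.8% and 97.4%.

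In counts of all 8 libraries some ribosomal protein mRNAs were called higher with corticosterone and none was called lower, while the mean share of the library in the members differed by -0.026 percentage points (corticosterone minus medium) with overlapping groups. In TPM of all 8 libraries, where the effective lengths differ, the members' median log2 difference was -0.23. Of the 80 members that could be tested, 14 rose in edgeR's quasi-likelihood test over all 8 libraries at a Benjamini-Hochberg adjusted p under 0.05, which is 17.5% of them. Over all 13272 genes tested, 19.5% were called higher and 20.6% lower, so the share of higher members was near the background and the share of lower members, 0 of 80, was below it. Among the 4463 other genes with at least 50 CPM in medium, 24.2% were called higher and 30.1% lower. At an unadjusted p under 0.05, 24 members were higher and 0 lower in edgeR (all genes, 23.4% and 24.3%). At an adjusted p under 0.05, DESeq2 called 22 higher and 0 lower (all genes, 19.4% and 18.2%). The median log2 fold change of the 80 was 0.065, a 1.05-fold difference, against -0.0046 for all genes, with 54 members above 0 and 26 below. By subunit, 9 of 48 tested large-subunit genes and 5 of 32 small-subunit genes were called, with median log2 fold changes of 0.076 and 0.052. The count of 14 fell to 8 without corticosterone replicate 2 and to 6 without medium replicate 1 or without medium replicate 2.

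Without corticosterone replicates 1 and 2, 10 members rose and 0 fell, where 18.4% of 13639 genes were called higher and 18.0% lower. The median log2 fold change of the members was 0.062 (all genes 0.0032), and 74 of 80 were above 0. Of the 14 members called in 8 libraries, 5 were called again, Rpl10a, Rpl36a, Rpl37 and Rps24 among them. The 5 called in the 6 libraries and not in the 8 were Rpl10, Rpl17, Rpl30, Rpl35 and Rps6. At an unadjusted p under 0.05, 21 were higher and 0 lower (all genes, 22.2% and 21.8%). Leaving out corticosterone replicate 3 or 4 as well gave 4 and 5 calls with a single corticosterone library, where the spread comes from the medium libraries alone and that library is assumed to vary like them. Leaving out medium replicate 2 or 3 gave 6 and 22, with 15 without medium replicate 4.

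**Figure D3:**
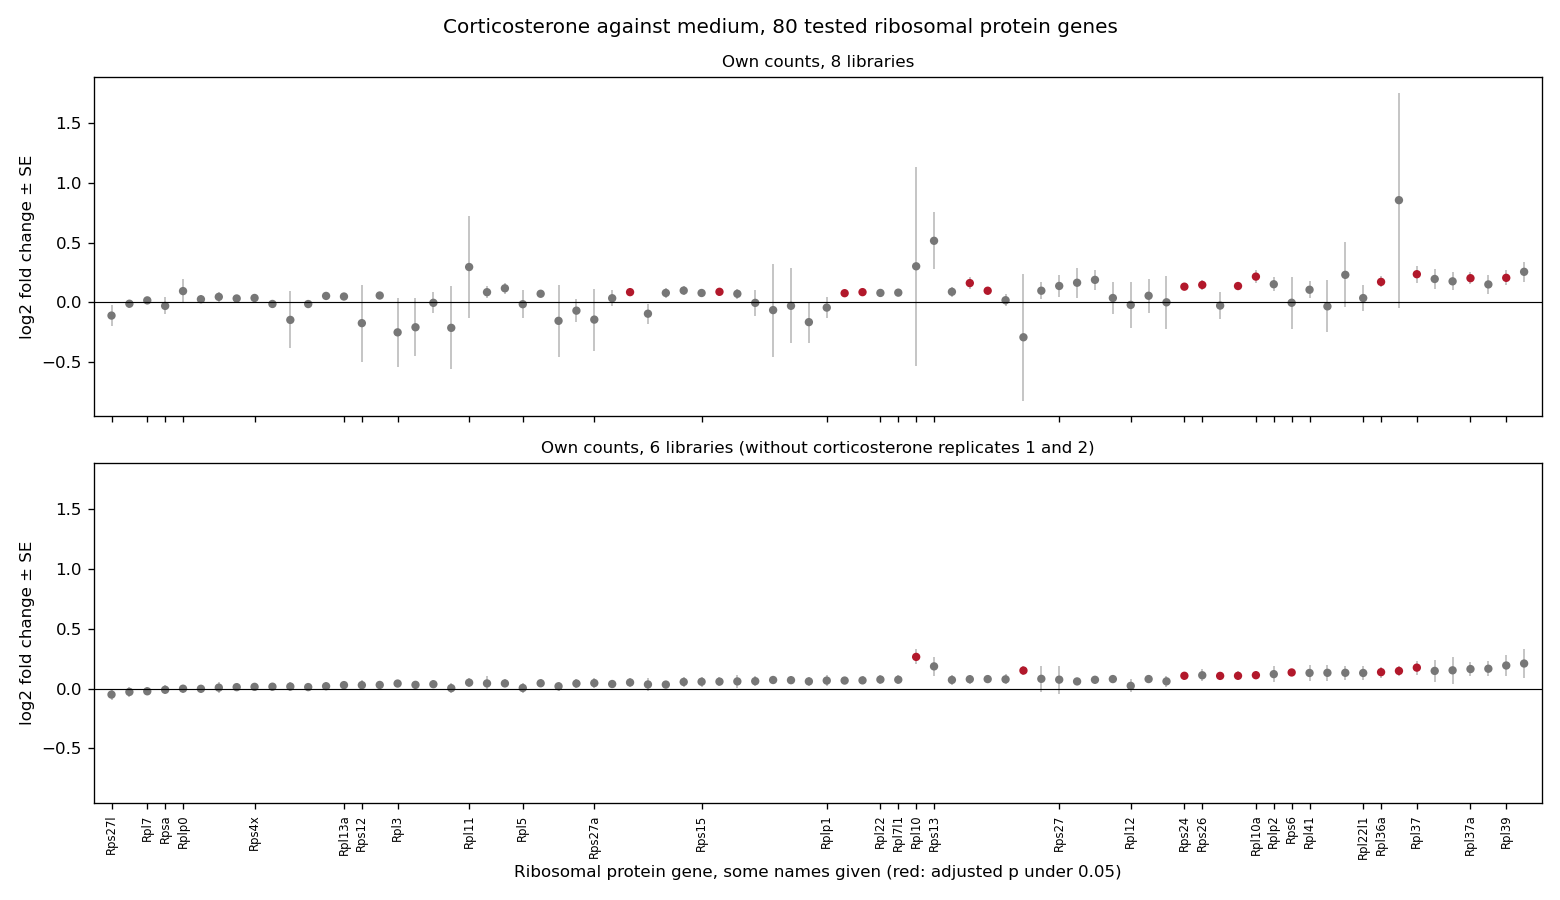
Log2 fold change ± SE of each of the 80 tested members, corticosterone against medium, from own counts in 8 libraries (top) and in the 6 ordinary libraries (bottom), in the order of the fold change of summed counts in the 6 libraries, with some members named; red marks an adjusted p under 0.05. In the bottom panel the values run from -0.05 to 0.27 and 74 lie above 0, while in the top panel members such as Rpl10 and Rpl11 carry wide errors.

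Adding to each member the counts of the genes that share its sequence gave more calls. With these sums, 31 of 80 members rose and 0 fell over 8 libraries, where 20.1% of 13106 genes were called higher and 21.1% lower. The median log2 fold change was 0.095, with 76 of 80 above 0, and all 14 members called from their own counts were among the 31. At an unadjusted p under 0.05, 50 were higher and 0 lower (all genes, 24.0% and 24.7%). The count of 31 fell to 18, 16, 17 and 15 without corticosterone replicate 1, corticosterone replicate 2, medium replicate 1 and medium replicate 2. It rose above 31 without corticosterone replicate 3 or 4. In the 6 ordinary libraries the sums gave 10 members higher and 0 lower (18.8% and 18.4% of all genes), with a median of 0.066. Rps24, Rpl36a and Rpl10a were among the members called in each of these 4 fits, with sums and own counts, in 8 and in 6 libraries.

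When the fit of the 6 libraries also took the effective length of each gene in each library as an offset, 2 members were higher (Rpl10 and Rps6) and 0 lower, where 11.3% of all genes were called higher and 10.2% lower. The median over the members was 0.042. With a term for corticosterone replicates 1 and 2 in the fit of all 8 libraries, 2 members rose and 0 fell, against 16.6% and 17.2% of all genes. With limma on log2(TPM + 0.5) in the 6 libraries, Rpl10 alone rose and 0 fell (9.53% and 12% of all genes), and the median over the members was 0.012, against -0.026 over all genes. With limma on TPM of all 8 libraries no member was called (7.94% of all genes higher and 4.94% lower), and 1 was higher and 0 lower at an unadjusted p under 0.05 (all genes, 15.2% and 11.1%). The median over the members there was -0.23, against 0.027 over all genes. The unadjusted counts of members higher and lower were 13 and 0 with the offsets (all genes, 16.7% and 16.3%), 5 and 0 with the term (20.6% and 21.5%), and 7 and 2 with limma in the 6 libraries (14.0% and 19.7%).

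The spread between the corticosterone libraries was wide for some members. The coefficient of variation of CPM over the 4 corticosterone libraries was above 25% in 19 of 80 members, and in medium in 0. After adding the sharing genes it was above 25% in 1 member, Rps12. The median over members fell from 8.8% to 4.0% with corticosterone and was 4.3% and 4.6% in medium.

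Of the proteins of the small subunit, Rps24, which is needed for the processing of precursor rRNA, showed the smallest p of the members in all 8 libraries. Rps24 (ENSMUSG00000025290.17, chromosome 14, 24487125 to 24496959, plus strand) had 530.0, 550.4, 522.6 and 516.1 CPM with corticosterone and 463.8, 475.9, 504.7 and 490.0 CPM in medium. All 4 corticosterone libraries lay above all 4 medium libraries. The log2 fold change was 0.13 ± 0.030 (SE), 1.10-fold, with an edgeR adjusted p of 0.00392, and without corticosterone replicates 1 and 2 it was 0.11 ± 0.034 with an adjusted p of 0.018. The call held without each of the 8 libraries in turn, with adjusted p from 0.00194 to 0.0178.

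Rps26, a small-subunit protein that lines the mRNA exit channel, had 382.0, 394.3, 372.7 and 362.3 CPM with corticosterone and 327.5, 320.7, 365.6 and 351.8 CPM in medium. In corticosterone replicate 1, 98.8% of these counts were in transcripts not annotated as protein coding, against at most 2.8% in any other library. Corticosterone replicate 4 lay below medium replicate 3, and the edgeR adjusted p for Rps26 rose from 0.0177 in 8 libraries to 0.109 in 6, with log2 fold changes of 0.15 and 0.11. Without medium replicate 1 it was 0.0539.

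Rps6, the small-subunit protein that S6 kinases phosphorylate, passed or missed the test by 1 library: without corticosterone replicate 1 its edgeR log2 fold change was 0.18 (adjusted p 0.00181). It had 633.8 CPM in corticosterone replicate 1 and 1267.6, 1153.3 and 1159.4 CPM in replicates 2 to 4, against 1027.6, 1037.3, 1061.2 and 1096.0 CPM in medium. Replicate 1 lay below all medium libraries and the other 3 above all of them. In replicate 1, 47.4% of the counts of Rps6 and its sharing genes lay in the sharing genes, against at most 2.2% in any other library.

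With the sharing genes added, Rps6 had 1204.3, 1269.6, 1154.9 and 1162.7 CPM with corticosterone and 1031.5, 1059.8, 1083.9 and 1117.4 CPM in medium, and the groups no longer overlapped. Its log2 fold change was -0.0028 ± 0.22 from its own counts in 8 libraries (edgeR adjusted p 0.994), 0.16 ± 0.033 from the sums (adjusted p 0.00172) and 0.14 ± 0.032 from own counts in 6 libraries (adjusted p 0.00241).

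Among the large-subunit proteins, Rpl10a, at the base of the stalk through which tRNA leaves, was called in the 4 fits named above. It had 490.2, 500.1, 412.3 and 446.5 CPM with corticosterone and 391.0, 399.7, 394.4 and 407.2 CPM in medium. The groups did not overlap, and corticosterone replicates 1 and 2 were the 2 highest. In replicate 2, 88.5% of the counts of Rpl10a were in transcripts not annotated as protein coding. That share was 11.3% in replicate 1 and 33.6% to 39.1% in the 6 ordinary libraries. The log2 fold change of Rpl10a was 0.22 ± 0.057 in 8 libraries (edgeR adjusted p 0.0155), 0.11 ± 0.033 in 6 (adjusted p 0.0126) and 0.13 ± 0.026 from the sums (adjusted p 0.00108). The call was lost without medium replicate 3, at an adjusted p of 0.0512.

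Rpl36a had 176.4, 191.9, 177.5 and 171.5 CPM with corticosterone and 151.8, 152.6, 160.0 and 172.4 CPM in medium. Corticosterone replicate 4 and medium replicate 4 overlapped. In corticosterone replicate 1, Rpl36a had 52.6% of its counts in transcripts not annotated as protein coding, against at most 12.4% in any other library. Its log2 fold change was 0.17 ± 0.046 (edgeR adjusted p 0.0123), against 0.14 ± 0.047 without corticosterone replicates 1 and 2 (adjusted p 0.0397). It was called without each of the 8 libraries in turn, with adjusted p from 0.00182 to 0.0413.

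Rpl37a, a small zinc-binding protein of the large subunit, had 321.3, 340.4, 309.9 and 312.8 CPM with corticosterone and 257.5, 267.8, 290.5 and 300.5 CPM in medium. The groups did not overlap, and the log2 fold change was 0.20 ± 0.051 (edgeR adjusted p 0.0101). In 6 libraries it was 0.16 ± 0.060 and missed the threshold with an adjusted p of 0.0703. Each fit that left out 1 of the 8 libraries called it (adjusted p 0.0025 to 0.0319).

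Rpl37, also a zinc-binding protein, had the largest fold change of the 14: 180.6, 154.3, 158.7 and 146.5 CPM with corticosterone and 127.2, 130.0, 142.1 and 144.4 CPM in medium. In corticosterone replicate 1, the highest library, 98.8% of these counts were in transcripts not annotated as protein coding, against at most 10.8% in any other library. The part of such transcripts in the members' values was not tested. The log2 fold change of Rpl37 was 0.24 ± 0.072 (edgeR adjusted p 0.0336) and 0.18 ± 0.059 in 6 libraries (adjusted p 0.0491). Rpl39, a very small protein in the wall of the exit tunnel, had 103.5, 110.3, 107.3 and 99.5 CPM against 83.0, 85.9, 98.0 and 98.1 CPM in medium. For both genes all corticosterone libraries lay above all medium libraries, with the lowest corticosterone value close to the highest medium value. The log2 fold change of Rpl39 was 0.21 ± 0.062 (edgeR adjusted p 0.0281) and 0.19 ± 0.085 in 6 libraries, where it missed the threshold (adjusted p 0.142). Both calls depended on single libraries: that of Rpl37 was lost without corticosterone replicate 2 or 3 or medium replicate 1, 2 or 3 (adjusted p 0.0527 to 0.0859), and that of Rpl39 without corticosterone replicate 1, 2 or 3 or medium replicate 2 (0.0635 to 0.0755).

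Rpl18, Rpl24, Rpl26, Rpl9 and Rps3 were also called in 8 libraries, with log2 fold changes from 0.09 (Rpl18) to 0.16 (Rpl24), and none of these was called in the 6 libraries. In corticosterone replicate 1, 100% of the counts of Rpl24 were in transcripts not annotated as protein coding, against at most 1.4% in any other library. The 2 groups of 4 libraries did not overlap in 8 members, all higher with corticosterone, among them Rpl10a, Rpl31, Rpl37, Rpl37a, Rpl39 and Rps24. Over all tested genes, 19.3% did not overlap and were higher and 20.6% did not overlap and were lower.

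**Figure D4:**
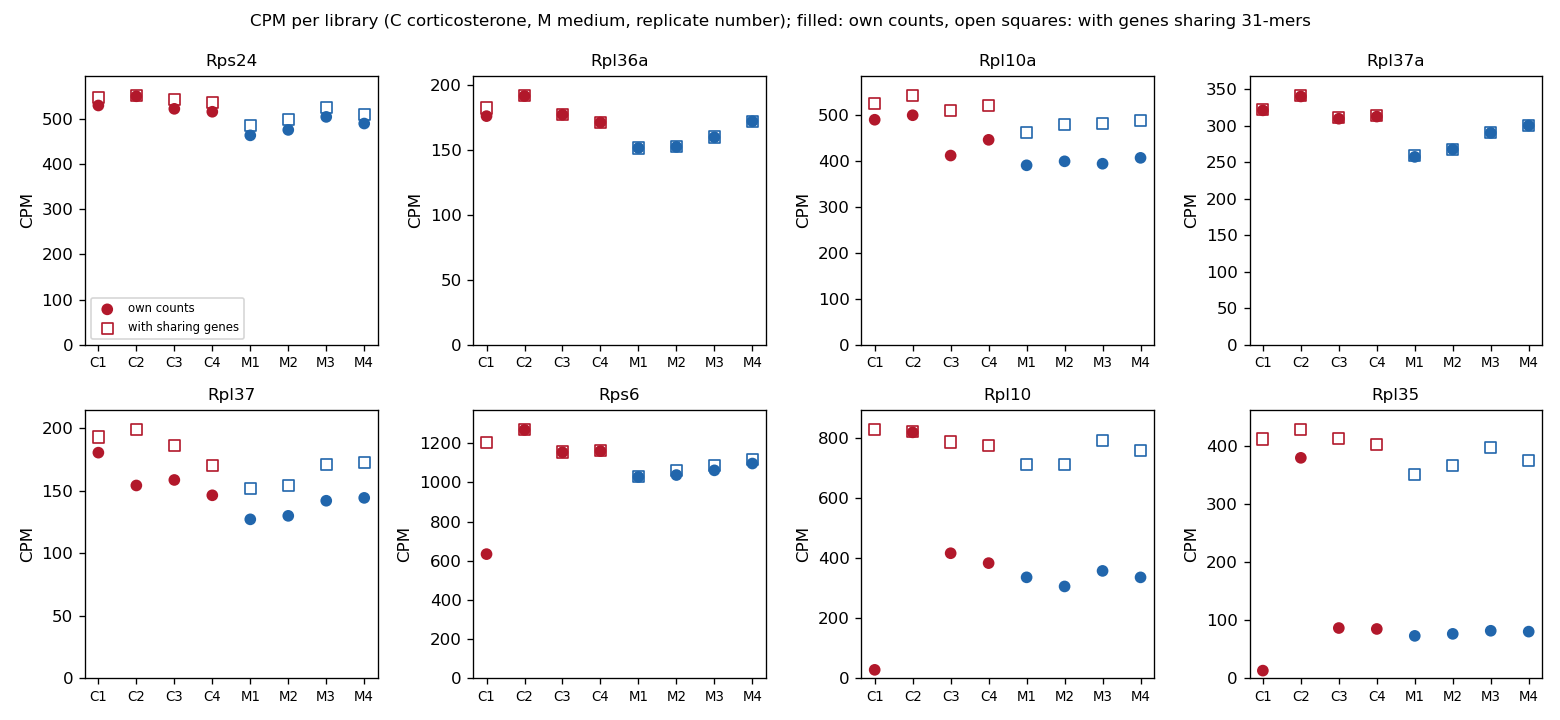
CPM of 8 members in each library (C corticosterone, red; M medium, blue), from own counts (filled circles) and with the sharing genes added (open squares). Own counts of Rps6, Rpl10 and Rpl35 scatter in corticosterone replicates 1 and 2, and their summed counts lie within a narrow range.

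Rpl10 and Rpl35 show how much of a member's count can rest on the copy. Rpl10 had 28.3, 820.3, 417.2 and 384.3 CPM with corticosterone and 336.8, 306.4, 358.3 and 336.7 CPM in medium. Its replicates 1 and 2 were the lowest and highest of all 8 libraries, and replicates 3 and 4 lay above medium. The summed counts were 829.8, 822.4, 788.4 and 776.8 CPM against 711.9, 713.9, 793.2 and 759.4 CPM. The edgeR log2 fold change of Rpl10 was 0.30 ± 0.83 in 8 libraries (adjusted p 0.814) and 0.27 ± 0.063 in 6 (adjusted p 0.0137), and from the sums 0.11 ± 0.036 in 8 libraries (adjusted p 0.0275) and 0.08 ± 0.040 in 6 (adjusted p 0.164). The copy's share was 47.0% and 50.4% in corticosterone replicates 3 and 4, below the lowest medium value of 52.6%, so the rise in Rpl10's own counts went with a smaller share of its copy.

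Rpl35, near the tunnel exit, had 13.3, 380.2, 86.7 and 85.1 CPM with corticosterone and 73.2, 76.7, 82.0 and 80.5 CPM in medium. With Gm2000 and the other sharing genes it had 412.6, 429.1, 413.9 and 403.4 CPM against 351.2, 367.4, 397.5 and 375.3 CPM, and the groups no longer overlapped. The sums gave a log2 fold change of 0.15 ± 0.035 in 8 libraries (edgeR adjusted p 0.00309) and 0.14 ± 0.040 in 6 (adjusted p 0.0132).

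For Rpl12, part of the stalk base, and for Rpl5 most counts lay in the copies. Rpl12 had 23.1 to 43.8 CPM of its own with corticosterone and 33.6 to 37.5 in medium, with overlap, and summed counts of 819.3, 836.2, 785.9 and 795.9 CPM against 718.2, 751.2, 738.2 and 763.4 CPM, without overlap. The edgeR log2 fold change of its sum was 0.12 ± 0.027 (adjusted p 0.00218), and 0.09 ± 0.031 in 6 libraries (adjusted p 0.0226). For Rpl5 the sum gave 0.07 ± 0.026 and missed the threshold (adjusted p 0.0525).

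The stalk proteins Rplp0, Rplp1 and Rplp2 did not pass the test from their own counts. Rplp0, the anchor of the stalk and a common reference gene in qPCR, had 1551.4, 2039.0, 1585.3 and 1558.6 CPM with corticosterone and 1502.7, 1588.4, 1611.9 and 1603.2 CPM in medium. Corticosterone replicate 2 alone stood above, and the edgeR log2 fold change was 0.09 ± 0.097 in 8 libraries (adjusted p 0.497) and 0.00 in 6. Rplp2 had a log2 fold change of 0.15 ± 0.057 (adjusted p 0.0645), and Rplp1 one of -0.04 ± 0.087 (adjusted p 0.74). With the sharing genes added, Rplp2 was called higher in 8 libraries and not in 6, while Rplp0 and Rplp1 were called in neither.

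Other members often used as references or followed for a function outside the ribosome also missed the threshold in 8 libraries. Rpl13a had 946.1, 998.2, 911.2 and 972.4 CPM with corticosterone and 905.6, 935.2, 909.6 and 948.9 CPM in medium, with a log2 fold change of 0.05 ± 0.029. Rpsa, also known as a laminin receptor, had -0.03 ± 0.070, Rps4x 0.04 ± 0.025 and Rpl7 0.02 ± 0.032. Rps19 had 0.05 ± 0.042 and Rpl11, the partner of Rpl5, 0.30 ± 0.43. The wide error of Rpl11 came with values of 49.8 and 212.9 CPM in corticosterone replicates 1 and 2, against 88.6 to 95.4 in the other 6 libraries.

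Rps27a, made as a fusion with ubiquitin, had 325.5 CPM in corticosterone replicate 1 and 671.8 to 721.8 CPM in the other corticosterone libraries, against 629.2 to 706.8 in medium. In replicate 1 the sharing genes held 54.0% of the family's counts, against at most 0.2% elsewhere, and with them Rps27a had 707.9 CPM there. Rps12 had 345.1 CPM in the same library and 886.4 to 974.8 in the other corticosterone libraries, against 827.5 to 924.3 in medium. Adding its sharing genes left Rps12 at 352.6 CPM there, whereas the same kind of sum brought Rps27a to 707.9 CPM. In that library 67.5% of the counts of Rps12 were in transcripts not annotated as protein coding, against at most 1.4% in any other. The part of these transcripts in the low value was not tested.

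Of the members, 6 are named as variants of another: Rpl3l, Rpl7l1, Rpl10l, Rpl22l1, Rpl39l and Rps27l. Rpl10l and Rpl39l, known from testis, had 0 counts in all 8 libraries, and Rpl3l, known from striated muscle, reached at most 0.063 CPM, so these 3 were not tested. For Rpl39l, 1 pseudogene shares part of its sequence and held 100% of their joint counts in each library that had any. Rpl22l1, the paralogue of Rpl22, had a log2 fold change of 0.04 ± 0.11 from its own counts and of 0.14 ± 0.047 from the sums (adjusted p 0.0386), where corticosterone replicate 2 moved from 75.9 to 103.3 CPM. Rpl7l1 missed the threshold with 0.08 ± 0.031 (adjusted p 0.0545), and Rps27l, a p53 target in other cells, had -0.11 ± 0.091 (adjusted p 0.395). None of the tested 3 was called from its own counts in 8 libraries.

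Members with shorter transcripts had slightly larger fold changes in median. In the 6 libraries, Pearson's r between log2 fold change and the length of the most counted transcript was -0.26 and Spearman's rho -0.34 over 80 genes, which share libraries and are not independent. In 8 libraries they were -0.18 and -0.29, and with effective-length offsets in 6 libraries -0.22 and -0.26. The 40 shorter members had a median log2 fold change of 0.076 in the 6 libraries and the 40 longer ones 0.046, and 4 and 6 of them were called. The shorter members were thus higher in median and not more often called there, whereas in 8 libraries 10 shorter and 4 longer members were called.

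**Figure D5:**
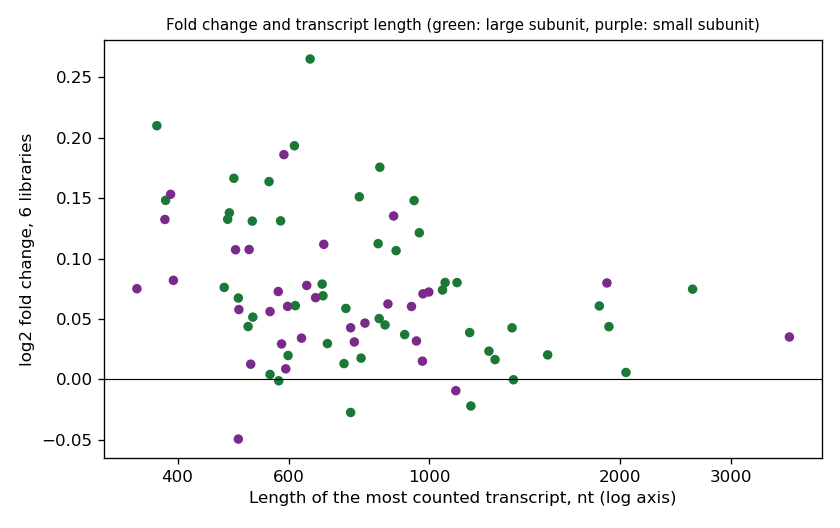
Log2 fold change of each tested member in the 6 ordinary libraries (vertical axis) against the length of its most counted transcript in nt (horizontal log axis), with large-subunit genes in green and small-subunit genes in purple. The values above 0.15 belong to transcripts under 1000 nt, and those of longer transcripts lie nearer to 0 (Spearman's rho -0.34).

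Genes that work with the ribosomal proteins were followed by lists written from general knowledge, in the fit of all 8 libraries. The counts below are to be read against the 19.5% of all genes called higher and the 20.6% called lower in that fit. The 5 ribosomal proteins that the symbol pattern leaves out, Rack1 and Fau among them, gave 0 calls from 5 tested, with a median log2 fold change of 0.071 and 2 genes at an unadjusted p under 0.05 (DESeq2 called 1 higher). Of 6 chaperones dedicated to single ribosomal proteins, 0 were called by edgeR or by DESeq2, and 2 had an unadjusted edgeR p under 0.05.

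Of 18 translation factors and other proteins encoded by TOP mRNAs, 3 rose and 1 fell, with a median of -0.0046, the value of all genes. Eef1d, a subunit of the exchange factor of elongation factor 1, rose by 0.14 ± 0.027 (edgeR adjusted p 0.00152), and Nap1l1, a histone chaperone, fell by 0.09 (adjusted p 0.0141). Of 24 other translation factors, 6 rose and 1 fell (all genes, 19.5% and 20.6%). Eef2k, the kinase that inhibits elongation factor 2, had a log2 fold change of 0.25 ± 0.035, and Eif5, which triggers GTP hydrolysis at the start codon, one of -0.20 ± 0.023.

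Ribosome assembly factors gave 13 higher and 1 lower of 40 tested, with a median of 0.038 (all genes, 19.5% higher and 20.6% lower). Rrp1b had 48.7, 48.7, 48.8 and 50.1 CPM with corticosterone and 40.7, 41.8, 41.2 and 40.4 CPM in medium, without overlap (log2 fold change 0.26 ± 0.029). Utp20 was the one that fell, by 0.08. For RNA polymerase I, 2 of 15 rose (Polr1a and Polr1b, its 2 largest subunits) and 2 fell (Ttf1, its termination factor, and Ubtf, which holds rDNA open). Polr1b changed by 0.29 ± 0.034 and Ttf1 by -0.21 ± 0.047 on the log2 scale.

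Regulators of ribosome synthesis held larger single changes. Of 22 genes of the mTORC1, LARP1 and MYC pathways, 9 rose and 3 fell, where 19.5% of all genes rose and 20.6% fell. Ddit4, a glucocorticoid-induced inhibitor of mTORC1, had 327, 349, 329 and 358 CPM with corticosterone and 111, 113, 106 and 109 CPM in medium, a 3.11-fold difference (log2 fold change 1.64 ± 0.034, edgeR adjusted p 3.44e-12). Sesn1, another inhibitor, rose 1.94-fold, and Myc, an activator of ribosomal protein genes, had a log2 fold change of 0.52 ± 0.035. Deptor, an mTOR-binding inhibitor, fell by 0.33 and Maf1, a repressor of RNA polymerase III, fell by 0.13 on the log2 scale. The changes of Ddit4, Sesn1 and Myc were larger than that of any called ribosomal protein gene, and their part in the members' values was not tested. No measure of translation or of protein was made here.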

How the data were processed

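RNA-seq of 8 libraries was used as deposited. Per the submitters' processing notes, bcl2fastq and kallisto 0.46.1 were used with mm10 and GRCm38. For the transcript index, strand setting and fragment length the value is not given in the sources used here. Per gene, the authors deposited estimated counts, and per transcript the estimated count, the TPM (per 1e+06, from count and effective length) and, per the file headers, the transcript and effective lengths. Gene symbols, biotypes and 31-mers came from GENCODE M21 (GRCm38), and start windows from RefSeq (GRCm38.p6).

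The comparison of rounded estimated counts used edgeR 4.0.16 under R 4.3.3 (filterByExpr, TMM, robust quasi-likelihood F test, group as the only term), with p adjusted by Benjamini-Hochberg over all tested genes and calls at an adjusted p under 0.05. CPM are TMM-scaled, and the SE is the log2 fold change divided by the square root of F. Gene sums joined each member with the genes sharing at least 10% of the smaller gene's 31-mers. Alternatives used DESeq2 1.42.0 and limma 3.58.1. The fitting script was tested on simulated data. The members, lists and tests were chosen with earlier results of these data known. Named members were up to 6 called higher and 6 called lower with the smallest p, the 4 called with the largest change, the 3 highest and lowest by TPM, and a list of names; members named beyond these were chosen after their values were seen. In each related list the genes with the smallest p were named; Myc was chosen after its value was seen. Noncoding snoRNA host genes were not analysed here, and some members are not reported here by name. Totals ran from 19.7 to 46.2 M counts per library.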

Additional observations from a re-analysis of the deposited data

Results flagged for a closer look

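In 4 of the 60 groups of 4 libraries examined for named members, 1 library lay far from the other 3, all with corticosterone. Chance flags about 1 in 20 such groups, and over all members 9 corticosterone groups and 0 medium groups were of this kind. Rps12 had 345.1 CPM in corticosterone replicate 1, against 886.4 to 974.8 in the other 3. Rps27a had 325.5 CPM in the same library, against 671.8 to 721.8. Rplp0 had 2039.0 CPM in corticosterone replicate 2, against 1551.4 to 1585.3, and Rplp2 310.9 CPM there, against 280.9 to 283.9. The sharing genes held 28.5% of the family counts in corticosterone replicate 1, against 15.8% to 17.5% in the other corticosterone libraries.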

How the results depend on the processing

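No alternative called a member lower. The number called higher, 14 with all 8 libraries, was 15 with DESeq2 size factors or with scaling from the other genes, 13 without a filter, 9 with library totals alone, 22 with DESeq2 and 12 among the 71 members with at least 50% unique 31-mers. The 71 were taken by the 31-mers of all transcripts of a gene and still include Rpl10, Rpl12 and Rps13, whose counts were divided with copies. The number called higher was 2 with a term for corticosterone replicates 1 and 2 and 0 with limma on log2(TPM + 0.5), on log2(TPM + 0.1) or without a filter. Leaving out 1 library gave 6 to 16. Without corticosterone replicates 1 and 2 it was 10, and 1 with limma on TPM. The following were chosen after seeing the data: 30 for sums with pseudogenes and ribosomal protein copies alone (31 with all sharing genes), 10 for sums in 6 libraries, 2 with effective-length offsets in 6 libraries for own counts and 2 for sums, 4 and 5 without corticosterone replicate 3 or 4 of the 6, 8, 6 and 22 without medium replicate 1, 2 or 3 of them, and 15 to 44 leaving out 1 of 8 from the sums (33 and 38 without corticosterone replicate 3 or 4). The replicate numbers did not pair the libraries (correlations of same-numbered libraries -0.042, 0.026, -0.10 and -0.018); the replicate block gave 7 calls, and 1 in 6 libraries.

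The median log2 fold change stayed between 0.01 and 0.12 except with TPM of all 8 libraries, where it was -0.23 with either pseudocount and without a filter. There the differences reversed for Rps24 (-0.35), Rpl37a (-0.29), Rpl36a (-0.45), Rpl10a (-0.13), Rps26 (-0.17) and Rpl39 (-0.23), the same to 2 decimals in the 3 settings. These settings divide by the effective lengths that differ between libraries. With own counts in 8 libraries Rpl5 (-0.01), Rpl12 (-0.02) and Rps6 (-0.0028) were below 0. Rpl5 was 0.080 with pseudogenes and copies. Rpl12 was 0.12 with either sum and 0.094 with sums in 6 libraries. Rps6 was 0.16 with either sum, 0.11 with sums in 6 libraries, 0.14 without corticosterone replicates 1 and 2, 0.18 without replicate 1 alone and 0.12 with offsets. The difference in mean member share (corticosterone minus medium) was -0.026 percentage points, and 0.198 with the sharing genes. Of the results for single genes, 722 kept direction and side of the threshold, 21 newly passed it, 60 no longer passed and 28 changed sign. Precision is limited by the division of reads between copies and by 2 ordinary corticosterone libraries.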
